A study of Mus musculus with 2 samples.

Results

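Messenger RNA of 5 neuropeptide precursor genes was followed cell by cell in sorted neurons of the newborn mouse hypothalamus: Adcyap1 (pituitary adenylate cyclase-activating polypeptide, PACAP), Sst (somatostatin), Penk (proenkephalin), Npy (neuropeptide Y) and Grp (gastrin-releasing peptide). These are 5 of the 24905 genes in the deposited count tables, taken by name and not by any measured value, and all 5 passed the minimum of 30 summed unique molecular identifiers (UMIs, 1 per captured transcript). The data are 2 Drop-seq libraries, in which single cells are caught in droplets with barcoded beads and only transcript 3' ends are sequenced. The Sim1 heterozygous library came from pups that carried Sim1-Cre, the tdTomato reporter and 1 lost copy of Sim1, and the control library from pups with Sim1-Cre and the reporter alone. Both groups were CD-1 pups of postnatal day 1 to 4, pooled from 6 animals per genotype by the sample labels and from 5 to 6 by the protocol. In both, viable red cells were sorted, so the libraries hold cells that express Sim1-driven Cre or descend from cells that did, and not the hypothalamus as a whole. With 1 pooled library per genotype there was no replicate, so each difference compares 2 libraries, no p-value is given, and all intervals are 95% intervals for counting error only. Genotype, pool, preparation and library cannot be told apart.

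Neuropeptides are cut from larger precursor proteins in the secretory pathway, stored in dense-core vesicles and released to act on G protein-coupled receptors. PACAP and GRP are mostly excitatory signals (PACAP raises cyclic AMP through its receptor), whereas somatostatin, enkephalin and neuropeptide Y act through receptors coupled to inhibitory G proteins. In the adult hypothalamus somatostatin of the periventricular nucleus holds back growth hormone release, and neuropeptide Y of arcuate neurons that also make agouti-related peptide stimulates feeding.

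The Sim1 heterozygous library held 2396 neuron-like cells (median 1609.5 UMIs) among 2476 barcodes, and the control library held 2751 neuron-like cells (median 1788 UMIs) among 2807 barcodes, with no barcode in both. Sim1 itself was at 92.6 UMIs per 1000000 summed UMIs (CPM) in the Sim1 heterozygous library and at 114 CPM in the control library. The pituitary gene Gh had 0 UMIs in neuron-like cells of the Sim1 heterozygous library and 2178 in those of the control library. The 6 pituitary markers were not higher in control cells rich in a peptide (158 to 262 CPM) than in the remaining control cells (354 to 359 CPM), and their part in the results was not tested. The 58 Sim1 heterozygous and 55 control glia-like cells (median 903.5 and 1350 UMIs) held no Adcyap1 or Grp UMI. The glia-like cells of the Sim1 heterozygous library held 1 Sst, 0 Penk and 1 Npy UMI, and those of the control library held 0 Sst, 2 Penk and 0 Npy UMIs.

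Upstream sequence (the 250 bases before the RefSeq start, build GRCm38.p6) was at hand for 3 of the 5 genes and is shown because Sst is a textbook target of cyclic AMP signalling, the pathway that PACAP receptors feed. Capitals mark the cyclic AMP response element TGACGTCA or its 5-base forms TGACG and CGTCA, searched on both strands (the 8-base form is its own reverse complement and contains both 5-base forms).
Adcyap1, chr17:93198767-93199016, forward strand: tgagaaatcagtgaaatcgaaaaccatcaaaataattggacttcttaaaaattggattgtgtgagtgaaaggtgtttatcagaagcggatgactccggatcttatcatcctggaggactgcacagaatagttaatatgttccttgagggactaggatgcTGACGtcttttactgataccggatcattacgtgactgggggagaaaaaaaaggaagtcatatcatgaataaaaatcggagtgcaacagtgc
Sst, chr16:23890845-23891094, reverse strand: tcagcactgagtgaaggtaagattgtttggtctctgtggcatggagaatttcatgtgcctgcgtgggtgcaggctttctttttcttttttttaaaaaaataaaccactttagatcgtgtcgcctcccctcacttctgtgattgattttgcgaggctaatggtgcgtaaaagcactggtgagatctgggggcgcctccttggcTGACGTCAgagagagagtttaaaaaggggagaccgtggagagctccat
Npy, chr6:49822460-49822709, forward strand: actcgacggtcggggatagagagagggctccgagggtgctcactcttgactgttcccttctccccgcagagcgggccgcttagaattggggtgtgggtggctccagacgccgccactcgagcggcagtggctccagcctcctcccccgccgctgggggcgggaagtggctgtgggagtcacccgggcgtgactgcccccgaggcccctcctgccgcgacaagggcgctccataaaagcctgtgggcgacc
The Sst window holds the whole element, starting 48 bases before the start of the gene, the Adcyap1 window holds 1 short form, 91 bases before it, and the Npy window holds neither. Of 32851 mouse windows of this length, 1.55% hold the 8-base element and 17.8% hold a 5-base form. A match describes these letters only. The RefSeq start of Sst lies inside the gene as GENCODE annotates it, so the Sst window overlaps that gene.

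The genes lie on different chromosomes of the mouse build mm10. Adcyap1 is on chromosome 17 from 93199017 to 93206537 (forward strand), Sst on chromosome 16 from 23889573 to 23890958 (reverse), Penk on chromosome 4 from 4133531 to 4138819 (reverse), Npy on chromosome 6 from 49822710 to 49829507 (forward) and Grp on chromosome 18 from 65872820 to 65886596 (forward). All are protein-coding. Penk overlaps A830012C17Rik and Grp overlaps an antisense gene, and since the sources used here do not state whether counting used strand, reads of these overlaps cannot be assigned with certainty.

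The 5 genes differed in how their transcripts were spread over cells. Adcyap1 was thin and widespread, Sst was concentrated in a small set of cells with many copies, Penk and Npy lay between, and Grp was rare. Of neuron-like cells, 357 (14.9%) in the Sim1 heterozygous library and 283 (10.3%) in the control library had an Adcyap1 UMI. The corresponding numbers of cells were 123 and 153 for Sst, 133 and 144 for Penk, 121 and 91 for Npy, and 21 and 27 for Grp. Sst had about as many summed UMIs in both libraries (880 in the Sim1 heterozygous and 896 in the control library), more than any other gene of the 5, yet 91.5% and 89.2% of them came from 60 and 75 cells with at least 3 UMIs each. Cells with at least 3 UMIs of a gene are called rich in it below.

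**Figure D1:**
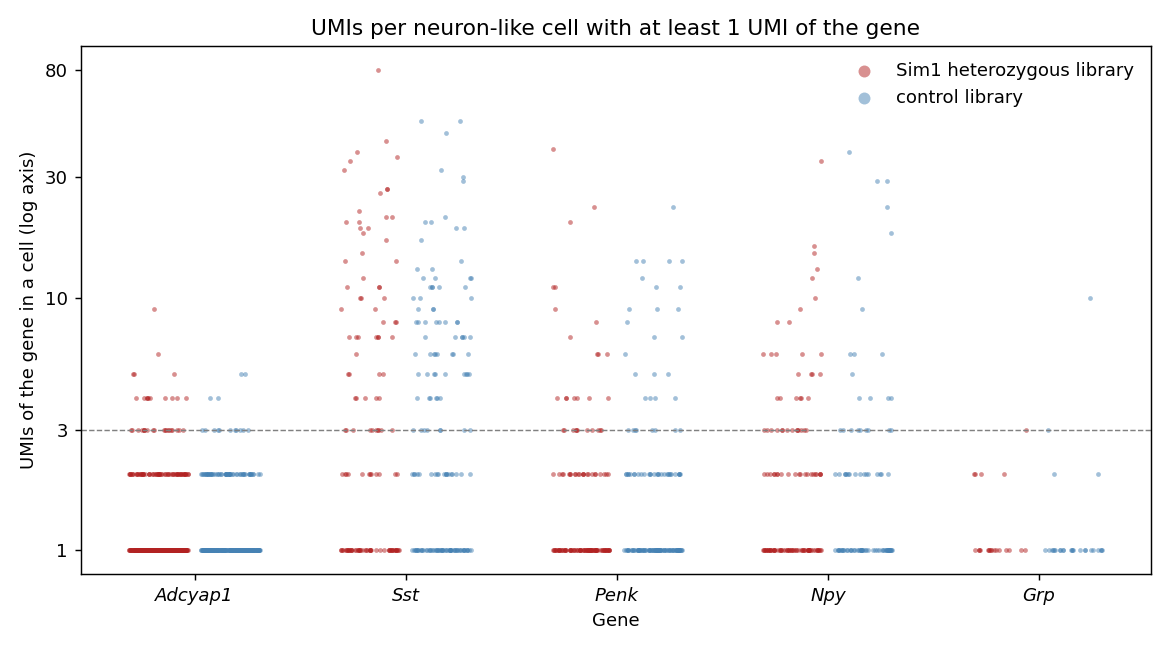
Each point is a neuron-like cell with at least 1 UMI of the gene on the x axis, and the log y axis gives the UMIs of that gene in the cell, with the Sim1 heterozygous library left of the control library. The dashed line is the minimum of 3 UMIs for a rich cell. Sst reaches 80 and 50 UMIs in a cell in these libraries, whereas Adcyap1 stays at or below 9 and 5.

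For Adcyap1, rich cells held only 25.1% of the UMIs in the Sim1 heterozygous library and 13.6% in the control library, and 100 and 95 cells were needed to reach 50% of them. For Sst, 14 Sim1 heterozygous cells and 20 control cells held that share. Penk needed 17 and 18 cells, Npy 18 and 7, and Grp 8 and 7. The variance of UMIs per cell divided by the mean, which is 1 for counts scattered at random over cells of equal depth, was 1.81 and 1.51 for Adcyap1, 23.9 and 17.4 for Sst, 9.97 and 6.84 for Penk, and 8.46 and 14.9 for Npy in the Sim1 heterozygous and control libraries. Adcyap1-rich cells were also deep cells, with a median of 5219 UMIs in the Sim1 heterozygous and 3892 in the control library, above the medians of 1609.5 and 1788 UMIs over all neuron-like cells. Sst-rich cells, with medians of 2551.5 and 2112 UMIs, were nearer to the libraries' medians.

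**Figure D2:**
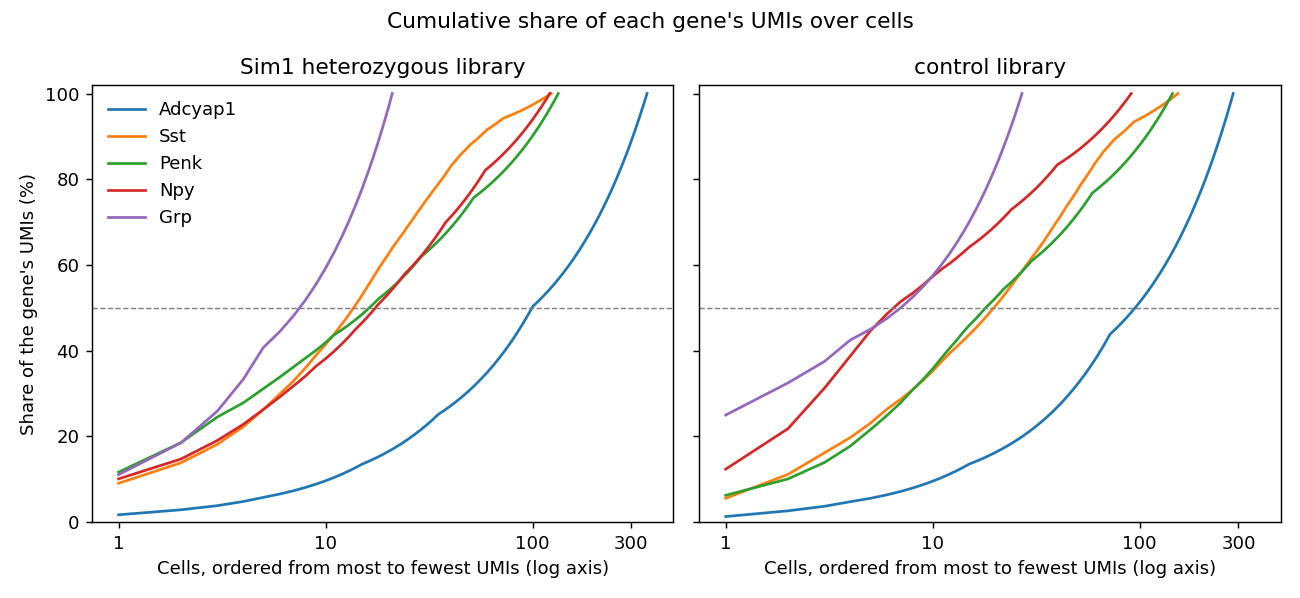
Cells are ordered along the log x axis from most to fewest UMIs of a gene, and the y axis gives the cumulative share of the gene's UMIs in the Sim1 heterozygous library (left) and the control library (right). The dashed line at 50% is crossed after 14 Sim1 heterozygous and 20 control cells for Sst, and after 100 and 95 cells for Adcyap1.

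Summed over neuron-like cells, Adcyap1 was the gene that differed most between the libraries. It was at 97.1 CPM [88.9 to 106] in the Sim1 heterozygous library and at 58.5 CPM [52.7 to 64.7] in the control library, a log2 ratio of 0.73 [0.54 to 0.93]. It was the only one of the 5 at least 1.5-fold higher, beside 7.95% of 14441 genes, and none was at least 1.5-fold lower, beside 9.16%. The log2 ratio was 0.27 when 13 neuron clusters were weighted equally. Sst was at 165 CPM in the Sim1 heterozygous and 139 CPM in the control library (log2 ratio 0.25 [0.11 to 0.38]), and Penk at 62.7 and 56.9 CPM (0.14 [-0.08 to 0.36]).

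Npy was at 65.0 CPM in the Sim1 heterozygous library and 47.8 CPM in the control library (log2 ratio 0.44 [0.22 to 0.67]). This value moved when few cells were left out and when clusters were weighted equally. Without the 5 cells richest in Npy in each library the log2 ratio was 0.85, and with clusters weighted equally it turned to -0.14. The latter leaned on the Dlx1/Slc32a1 cluster (described below), at 893 CPM from 1 Sim1 heterozygous cell and at 993 CPM in the control library. Whether the Npy ratio depends on the cell mix was not tested. Grp, at 5.07 CPM from 27 UMIs and 6.22 CPM from 40 UMIs, had a log2 ratio of -0.28 [-1.06 to 0.44], so no difference was detectable at this depth. The median over all genes tested was 0.04.

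The share of cells with a UMI gave the same order for Adcyap1 when every cell was thinned to 857 UMIs. Thinning left out 585 Sim1 heterozygous and 156 control cells that were shallower. An Adcyap1 UMI was then found in 6.79% [5.68 to 8.05] of Sim1 heterozygous cells and 4.39% [3.64 to 5.25] of control cells, a ratio of 1.55 [1.19 to 2.01]. For Sst the shares were 3.81% and 3.78% (ratio 1.01 [0.73 to 1.39]), for Penk 3.59% and 2.70% (1.33 [0.935 to 1.89]), and for Npy 2.93% and 2.08% (1.41 [0.944 to 2.09]). The intervals of these 3 ratios include 1, but that of Npy did not without thinning (1.53 [1.15 to 2.03]) or with cells thinned to 1583 UMIs (1.55 [1.04 to 2.33]). Grp was seen in 0.387% and 0.347% of thinned cells, from 7 and 9 cells. Rich cells were 2.68 [1.43 to 5.28] times as frequent in the Sim1 heterozygous library for Adcyap1 and 1.82 [1.06 to 3.17] times for Npy, without thinning.

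Cells were then gated by marker genes that were not among the 5: Avp or Oxt with at least 10 UMIs (vasopressin and oxytocin, the magnocellular hormones), Crh with at least 3 (corticotropin-releasing hormone), Trh with at least 3 (thyrotropin-releasing hormone), and Foxb1, Neurod6 or Tcf7l2 with at least 2. Foxb1 is a forkhead factor of the mammillary region, Neurod6 a basic helix-loop-helix factor of maturing neurons, and Tcf7l2 a Wnt pathway factor prominent in the thalamus. In the Sim1 heterozygous and control libraries the gates held 26 and 111 cells for Avp, 10 and 69 for Oxt, 35 and 33 for Crh, 33 and 43 for Trh, 869 and 656 for Foxb1, 30 and 56 for Neurod6, and 22 and 118 for Tcf7l2. No gate took 1385 cells (57.8%) and 1735 cells (63.1%), and 14 and 68 cells passed several. Gates other than Foxb1 are therefore small, above all in the Sim1 heterozygous library. Cells of no gate were shallower there (median 1218 UMIs) than in the control library (1659 UMIs).

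**Figure D3:**
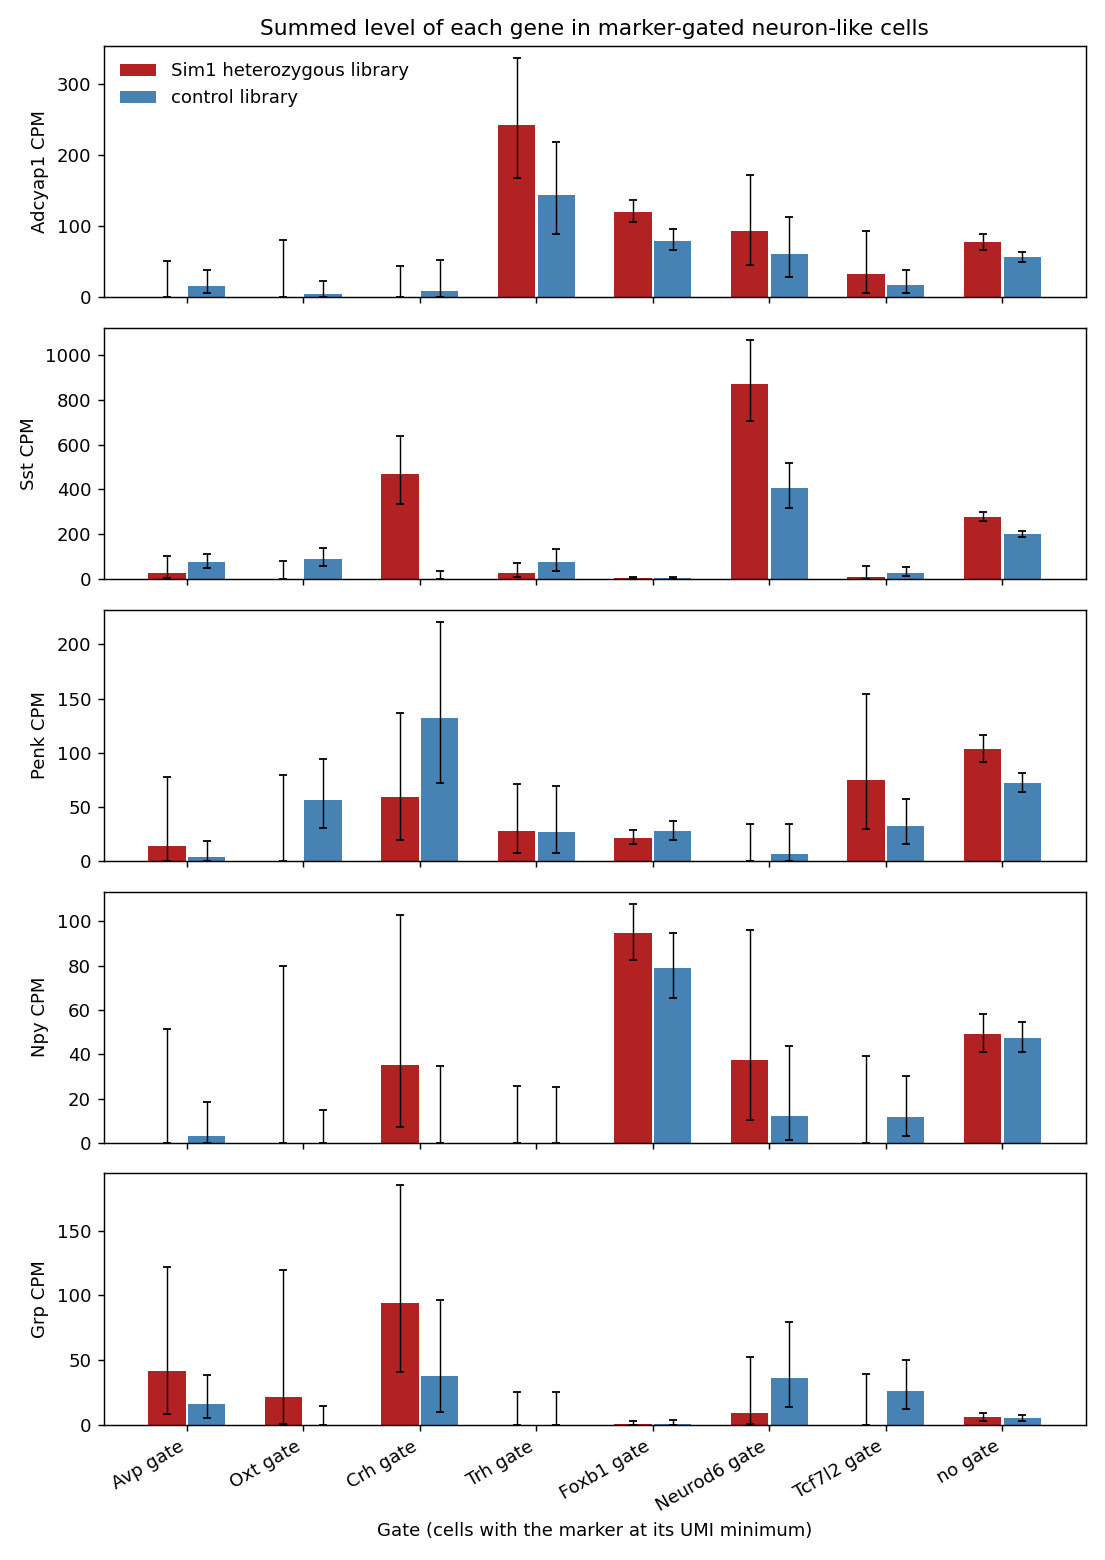
Bars give the CPM of each gene (1 panel per gene, linear y axis from 0) summed over the cells of a gate, and black lines give 95% Poisson intervals, with the Sim1 heterozygous library left of the control library. Adcyap1 peaks in the Trh gate, Sst in the Neurod6 gate and Npy in the Foxb1 gate in both libraries, and the Sst bar of the Crh gate rests on 1 cell with 38 UMIs.

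Adcyap1 had its highest level in Trh neurons and most of its gated UMIs in Foxb1 neurons. In the Trh gate it was at 242 CPM [168 to 336] in the Sim1 heterozygous library, which is 3.22-fold the level of cells in no gate (76.9 CPM). In the Trh gate of the control library it was at 143 CPM [88.3 to 218], 2.65-fold the level of no gate (56.1 CPM). It was the only gene of the 5 at least 2-fold higher in the Trh gate in both libraries, beside 14.1% of all genes in the Sim1 heterozygous library and 16.2% in the control library. The Trh level in the Sim1 heterozygous library depended on the gate, with 145 CPM when 1 Trh UMI sufficed.

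Foxb1 neurons held 267 of 517 Adcyap1 UMIs (51.6%) in the Sim1 heterozygous library, at 120 CPM, and 116 of 376 (30.9%) in the control library, at 79.6 CPM [65.8 to 95.5]. The gate held 41.7% and 22.7% of the UMIs of all genes in these libraries. In the control library the Adcyap1 interval of the Foxb1 gate overlaps that of the Trh gate. The Adcyap1 levels of the Foxb1 gate were 1.56-fold and 1.43-fold those of no gate. Within the Foxb1 gate the log2 ratio between libraries was 0.59 [0.28 to 0.92], but the gate drew on different clusters, with 390 of its 869 cells in the Tanc1/Cpne9 cluster (described below) in the Sim1 heterozygous library and 134 of 656 in the control library. Adcyap1 was nearly missing from the magnocellular and Crh neurons. The 60 Sim1 heterozygous cells of the Avp, Oxt or Crh gates held 0 Adcyap1 UMIs, which allows up to 19.3 CPM (3 UMIs over these cells), and the 153 control cells held 6, at 13.3 CPM [4.89 to 29.0].

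Sst was scarce in the Foxb1 gate. Only 13 of its 880 UMIs in the Sim1 heterozygous library and 6 of its 896 in the control library were in Foxb1 neurons, at 5.86 CPM [3.12 to 10] and 4.12 CPM [1.51 to 8.97], against 277 and 200 CPM in cells of no gate. With 1 Foxb1 UMI as the minimum, the level in the Sim1 heterozygous library was 43.2 CPM. Sst and Penk were at least 2-fold lower in the Foxb1 gate than in no gate in both libraries, beside 3.26% of all genes in the Sim1 heterozygous library and 3.44% in the control library. Cells of no gate held 82.6% and 87.1% of all Sst UMIs.

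Neurod6 neurons were the gate with most Sst. There it was at 871 CPM [703 to 1067] in the Sim1 heterozygous library (7 of 30 cells with a UMI, 5 of them rich) and 407 CPM [315 to 517] in the control library (12 of 56 cells, 8 rich). These levels were 3.18-fold and 2.06-fold those of no gate, and Sst alone of the 4 genes with at least 30 UMIs in each library was at least 2-fold higher in both, beside 17% and 13.9% of all genes. Leaving out the cell with most Sst gave 504 and 309 CPM, which is under 2-fold the level of no gate in both libraries, so the 2-fold difference rests on 1 cell in each. In the Sim1 heterozygous library the level was 498 CPM with a looser gate and 438 CPM with a stricter one. In several other gates 1 cell made most of the level. In the Crh gate of the Sim1 heterozygous library 38 of the 40 Sst UMIs were in 1 cell, and without it the level was 27.6 CPM. The control Crh gate had 0 Sst UMIs, which allows up to 28.2 CPM. In the control library the same 3 cells passed both the Avp and the Oxt gate and gave each its 23 Sst UMIs, 21 of them in 1 cell, and the Trh gate held 11, all in 1 cell. Cells that passed the Avp or the Oxt gate alone had 0 Sst UMIs there. The Trh gate of the Sim1 heterozygous library held 4 Sst UMIs in 3 cells, and the Tcf7l2 gate of the control library 10 in 4 cells.

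Penk lay mostly outside the gates. Cells of no gate held 81.1% of its UMIs in the Sim1 heterozygous library (103 CPM) and 77.0% in the control library (72.2 CPM). In Foxb1 neurons it was at 21.2 CPM [15.6 to 28.2] and 27.5 CPM [19.6 to 37.4], which is 0.209-fold and 0.388-fold the level of no gate. Neurod6 neurons, the gate with most Sst, held 0 and 1 Penk UMIs. The control Crh gate stood at 132 CPM from 14 UMIs of 1 cell, and the Sim1 heterozygous Crh gate at 58.7 CPM from 5 UMIs in 3 cells, so no level of Crh neurons can be given for Penk.

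Foxb1 neurons were the gate with most Npy. The Foxb1 gate held 210 of 346 Npy UMIs (60.7%) in the Sim1 heterozygous library, at 94.6 CPM [82.3 to 108], and 115 of 307 (37.5%) in the control library, at 79.0 CPM [65.2 to 94.8]. These are 1.92-fold and 1.67-fold the levels of no gate (49.1 and 47.4 CPM), so no gene of the 5 was at least 2-fold higher in the Foxb1 gate, beside 2.49% of all genes in the Sim1 heterozygous library and 2.3% in the control library. Between the libraries Npy in the Foxb1 gate had a log2 ratio of 0.26 [-0.07 to 0.60], an interval that includes 0. No Npy UMI was counted in the Trh or Oxt gates of either library. With 1 Foxb1 UMI as the minimum, the control level was 63.5 CPM.

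Grp UMIs were few, and its level was highest in the Crh gate in both libraries. The Crh gate held 8 of 27 Grp UMIs in 6 of 35 cells of the Sim1 heterozygous library (94.0 CPM [40.6 to 185]) and 4 of 40 in 3 of 33 cells of the control library (37.6 CPM [10.2 to 96.2]). Cells of no gate were at 5.71 and 5.12 CPM. In the control library, where Grp passed 30 UMIs, it was the only gene of the 5 at least 2-fold higher in the Crh gate, beside 21.1% of all genes, while in the Sim1 heterozygous library none of the other 4 was, beside 22.3%. The Avp gate held 3 Grp UMIs in the Sim1 heterozygous library (41.9 CPM [8.64 to 122]) and 5 in the control library (16.4 CPM [5.34 to 38.4]). Of the 4 Grp UMIs of the control Crh gate, 3 were in cells that also passed the Avp gate. The Neurod6 gate held 1 Grp UMI in the Sim1 heterozygous library and 6 in the control library, the Tcf7l2 gate 0 and 9, and the Foxb1 gate 2 and 1. The Tcf7l2 gate of the Sim1 heterozygous library had only 22 cells, and its 0 allows up to 32 CPM, above the 26.3 CPM of the control. In the control library the intervals of the Crh, Neurod6 (36.4 CPM) and Tcf7l2 gates overlap.

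Clusters built without the 5 genes placed them more finely. Each cluster is called by its leading genes. The Tanc1/Cpne9 cluster, in which 83.0% of Sim1 heterozygous and 84.3% of control cells passed the Foxb1 gate, had 470 and 159 cells. It held 195 of the Npy UMIs in the Sim1 heterozygous library (56.4%) and 67 in the control library (21.8%), at 163 CPM [141 to 188] and 197 CPM [152 to 250], whose intervals overlap. The same cluster held 170 Adcyap1 UMIs in the Sim1 heterozygous library at 142 CPM [122 to 165] and 21 in the control library at 61.7 CPM [38.2 to 94.3], and these intervals do not overlap. Nts/Rprm, with 63.2% and 71.8% of its cells in the Foxb1 gate, held Adcyap1 at 112 and 97.3 CPM and Npy at 59.5 and 83.4 CPM. Emx2/Fezf2, with 37.4% and 46.1% of its cells in that gate, held less of both. There Adcyap1 was at 65.4 and 39.9 CPM and Npy at 3.27 and 10.7 CPM in the Sim1 heterozygous and control libraries.

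**Figure D4:**
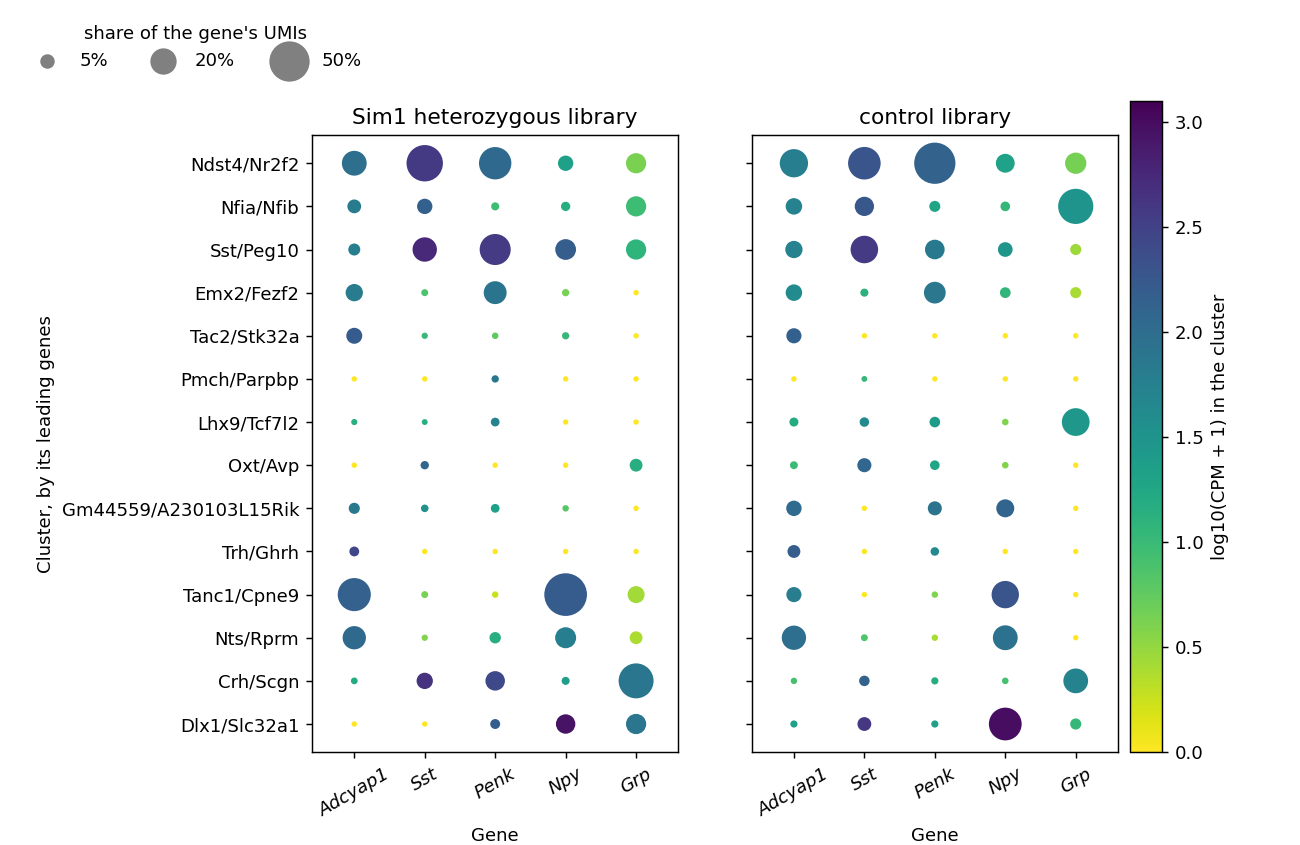
Rows are the neuron clusters reported here, named by their leading genes, columns are the 5 genes, and the panels show the Sim1 heterozygous library (left) and the control library (right). Colour is log10(CPM + 1) in the cluster and dot area grows with the share of the gene's UMIs in that library. Npy is darkest in Dlx1/Slc32a1 in both libraries, and the largest dot for Npy is Tanc1/Cpne9 in the Sim1 heterozygous library (56.4%).

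The highest Adcyap1 levels of any cluster were in Tac2/Stk32a (160 CPM in 55 Sim1 heterozygous cells and 143 CPM in 53 control cells) and in Trh/Ghrh (278 CPM in 6 and 151 CPM in 30 cells). The Pmch/Parpbp cluster, led by the melanin-concentrating hormone gene, held no Adcyap1 UMI in either library. Ndst4/Nr2f2 held 355 and 285 Sst UMIs in the Sim1 heterozygous and control libraries, and Sst/Peg10 held 149 and 198. Most cells of both clusters had no Sst UMI. One was found in 37 of 264 and 38 of 398 cells of Ndst4/Nr2f2, and in 22 of 256 and 40 of 360 cells of Sst/Peg10. Of the 355 UMIs, 80 were in 1 cell. The Sst level in Ndst4/Nr2f2 was 374 CPM in the Sim1 heterozygous library and 195 CPM in the control library, and in Sst/Peg10 it was 557 and 362 CPM. Crh/Scgn had 59 Sst UMIs in 8 Sim1 heterozygous cells and 19 in 2 control cells.

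Penk shared the Ndst4/Nr2f2 cluster, with 105 UMIs (31.4%) in the Sim1 heterozygous and 192 (52.5%) in the control library, and Emx2/Fezf2, with 49 and 48. It differed more between the libraries in Sst/Peg10, with 96 UMIs at 359 CPM [291 to 438] and 38 UMIs at 69.5 CPM [49.2 to 95.4], and in Crh/Scgn, with 34 and 2 UMIs. In the Sst/Peg10 cluster the median depth was 807 UMIs in the Sim1 heterozygous and 1338 in the control library. Of the 96 UMIs, 39 were in 1 cell. With clusters weighted equally the Penk log2 ratio between libraries was 1.14. Grp was at 75.9 CPM in Crh/Scgn in the Sim1 heterozygous library (10 UMIs) and at 50.2 CPM in the control library (7 UMIs). Dlx1/Slc32a1 of the Sim1 heterozygous library stood at 76.5 CPM from 3 Grp UMIs of 1 cell. Nfia/Nfib of the control library had 15 Grp UMIs, 10 of them in 1 cell.

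Npy was also found in a cluster of inhibitory neurons. The Dlx1/Slc32a1 cluster, led by genes of GABA neurons (Slc32a1 loads GABA into vesicles, Dlx1 is a homeobox factor of GABA neuron development), had the highest Npy level of any cluster, 893 CPM [622 to 1241] in the Sim1 heterozygous and 993 CPM [807 to 1209] in the control library. The level came from 1 of 28 cells with 35 UMIs in the Sim1 heterozygous library, and from 99 UMIs in 5 of 56 cells in the control library. The cells with most Npy were looked at after their values were seen. The top cell of the Sim1 heterozygous library had 35 Npy, 4 Agrp, 1 Slc32a1 and 2 Isl1 UMIs among 822 in all. The top cell of the control library had 38 Npy, 1 Agrp, 2 Isl1, 3 Otp and 0 Slc32a1 UMIs among 1455. Neither cell had a UMI of Dlx1 or of Gad1 and Gad2, which make GABA. In the control cluster 2 further cells had 29 Npy and 0 Agrp UMIs each. One held 30 Sst, 1 Gad1 and 1 Slc32a1 UMIs, and the other 17 Gal, 4 Gad2, 2 Slc32a1 and 7 Dlx1 UMIs. Agrp encodes agouti-related peptide, and Isl1 is a LIM homeobox factor of arcuate neurons. Of the cells with at least 10 Npy UMIs, 2 of 6 in the Sim1 heterozygous and 1 of 6 in the control library had an Agrp UMI, whereas only 6 and 4 of all neuron-like cells did. Of the rest, 2 cells of the Sim1 heterozygous library (12 and 19 Foxb1 UMIs) and 1 of the control library (8 Foxb1 UMIs) were Foxb1 neurons.

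Few cells were rich in a pair of the 5 genes, and few were rich in any. Of 158 Sim1 heterozygous cells (6.59%) rich in any of them, 5 were rich in a pair, and of 144 control cells (5.23%), 2 were. Whether these numbers differ from those of genes spread independently was not tested. In the Sim1 heterozygous library 2 of these cells paired Adcyap1 with Npy and had 8 Foxb1 UMIs each, 1 paired Adcyap1 with Penk and had 5 Trh UMIs, 1 paired Sst with Npy, and 1 paired Sst with Penk and had 8 Crh UMIs. In the control library both cells paired Sst with Npy, and one held 30 Sst and 29 Npy UMIs. These cells were deep, with a median of 5303 UMIs in the Sim1 heterozygous and 3433.5 in the control library, and whether any were 2 cells in 1 droplet was not tested. Without the 2% deepest cells, 3 were left in the Sim1 heterozygous library.

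Adcyap1-rich cells held little Sst, but Sst lay mostly in 60 Sim1 heterozygous and 75 control cells. Few of these would fall among 35 and 15 Adcyap1-rich cells even if the genes were unrelated, which was not tested. Sst was at 14.8 CPM in the 35 Adcyap1-rich cells of the Sim1 heterozygous library against 171 CPM in its other cells, and at 14.6 CPM in the 15 Adcyap1-rich control cells against 141 CPM. After thinning, 2 of 123 Sim1 heterozygous cells with Adcyap1 (1.63% [0.198 to 5.75]) also had Sst, against 3.97% of those without Adcyap1. In the control library 0 of 114 cells with Adcyap1 had Sst (interval up to 3.18%), against 3.95%. Without thinning the shares were 3.36% against 5.44% in the Sim1 heterozygous library and 5.30% against 5.59% in the control library. For Penk and Npy, Npy had 0 UMIs in the 29 Penk-rich Sim1 heterozygous and the 30 Penk-rich control cells, with intervals that reach 29.2 and 29.1 CPM, against 66.6 and 48.7 CPM in the other cells. Npy too lay mostly in few cells (38 and 24 rich cells), so these zeros could occur with no relation between the genes, which was not tested. Sst in Npy-rich control cells stood at 831 CPM against 133 CPM in other control cells, but without the cell with most Sst it was 362 CPM, where 20 of the 21 remaining UMIs were in 1 further cell. In the Npy-rich cells of the Sim1 heterozygous library Sst stood at 29.2 CPM, against 169 CPM in the other cells.

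All 4 sets of rich cells carried the glutamate neuron gene Slc17a6. Slc17a6, the glutamate vesicle transporter, was in the Sim1 heterozygous and control libraries at 791 and 815 CPM in Adcyap1-rich cells, 676 and 494 CPM in Sst-rich cells, 925 and 537 CPM in Penk-rich cells, and 1073 and 717 CPM in Npy-rich cells. The other cells of each library lay between 784 and 795 CPM in the Sim1 heterozygous and 611 and 617 CPM in the control library. Summed over 11 astrocyte or radial glia markers, the rich cells of these 4 genes were at 204 to 372 CPM in the Sim1 heterozygous library, against 268 to 273 CPM in its other cells, and at 48.9 to 252 CPM in the control library, against 198 to 201 CPM. Single markers of this list stood higher in some sets: Vim at 54.4 CPM in Adcyap1-rich cells of the Sim1 heterozygous library against 8.20 CPM in its other cells, Fabp7 at 36.5 CPM in its Npy-rich cells (5 UMIs) against 7.32 CPM, and Mt3 at 199 CPM in Sst-rich control cells against 111 CPM. Gfap was at 0 in rich and other cells alike. The part of glial RNA in the results was not tested. Gad2, which makes GABA, was at 126 CPM in Penk-rich cells of the Sim1 heterozygous library against 48.7 CPM in its other cells, and at 0 against 28.9 CPM in the control library. In Sst-rich cells it was at 92.0 against 49.0 CPM and 38.0 against 28.0 CPM in these libraries. In Adcyap1-rich cells it was at 4.94 against 52.3 CPM and 0 against 28.6 CPM. The log2 interval of Gad2 in Sst-rich control cells was -0.79 to 1.45. The other GABA genes of the list, Gad1 and Slc32a1, had few UMIs. In Sst-rich cells both had 0 UMIs in the Sim1 heterozygous library, and 1 and 3 in the control library. In Penk-rich cells Gad1 had 0 in both libraries, and Slc32a1 had 4 and 0. In Adcyap1-rich cells both had 0 in both libraries.

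Genes that stood highest in rich cells over other neuron-like cells in both libraries gave each peptide a set of companions. For these sets a gene needed at least 10 UMIs in the rich cells, a minimum that genes pass through the very cells in which they are high, so the counts are a description. Of 1473 genes compared for Adcyap1, 3 (0.204%) were at least 2-fold higher in both libraries, led by Neurod6 (log2 ratio 1.88 in the Sim1 heterozygous and 1.96 in the control library), the orphan nuclear receptor Nr2f2 (1.53 and 2.30) and the synaptic organizer Cbln1 (1.39 and 1.95), with the kinase subunit Camk2g at 0.95 and 0.89. Only 2 of 35 Sim1 heterozygous and 2 of 15 control Adcyap1-rich cells passed the Neurod6 gate. Adcyap1 in that gate was 1.33-fold and 1.19-fold the level of no gate, with log2 intervals of -0.80 to 1.19 and -0.97 to 1.02. Trh was higher in Adcyap1-rich cells of the Sim1 heterozygous library (163 against 51.9 CPM) and at 87.3 against 77.1 CPM in the control library. Foxb1 was at 633 against 918 CPM in the Sim1 heterozygous library and at 378 against 516 CPM in the control library.

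For Sst, 19 of 3233 genes (0.588%) were at least 2-fold higher, with Calcr, the calcitonin receptor, at 75.8 CPM in Sst-rich cells against 13.0 CPM in other cells of the Sim1 heterozygous library and at 80.7 against 14.2 CPM in the control library. Next came Neurod6 (log2 ratio 1.83 and 2.22), the imprinted gene Peg10 (1.81 and 1.81) and the protocadherin Pcdh11x (1.83 and 1.78). Foxb1 was at 48.7 against 938 CPM in the Sim1 heterozygous library and at 14.2 against 532 CPM in the control library.

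For Penk, 9 of 2181 genes (0.413%) qualified, led by Id2 (1.61 and 1.77), an inhibitor of basic helix-loop-helix factors, with Me1 (1.43 and 1.29), Hmgn5 (1.76 and 1.24) and Dgkk (1.09 and 1.08). Otp, the homeobox factor of hypothalamic peptide neurons, was at 379 against 223 CPM in Penk-rich cells of the Sim1 heterozygous library and at 710 against 346 CPM in those of the control library. For Npy, 11 of 1279 genes (0.86%) qualified, led by Hopx (2.40 and 2.86), Cartpt, a further peptide precursor (1.82 and 2.36), the neurofilament gene Nefm (2.17 and 1.74) and the calcium pump Atp2b4 (1.42 and 2.08). Bdnf was at 504 against 148 CPM and 212 against 106 CPM, and Foxb1 at 1503 against 891 CPM and 1385 against 506 CPM, in the Sim1 heterozygous and control libraries. Grp had 1 and 2 rich cells, too few for companions.

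**Figure D5:**
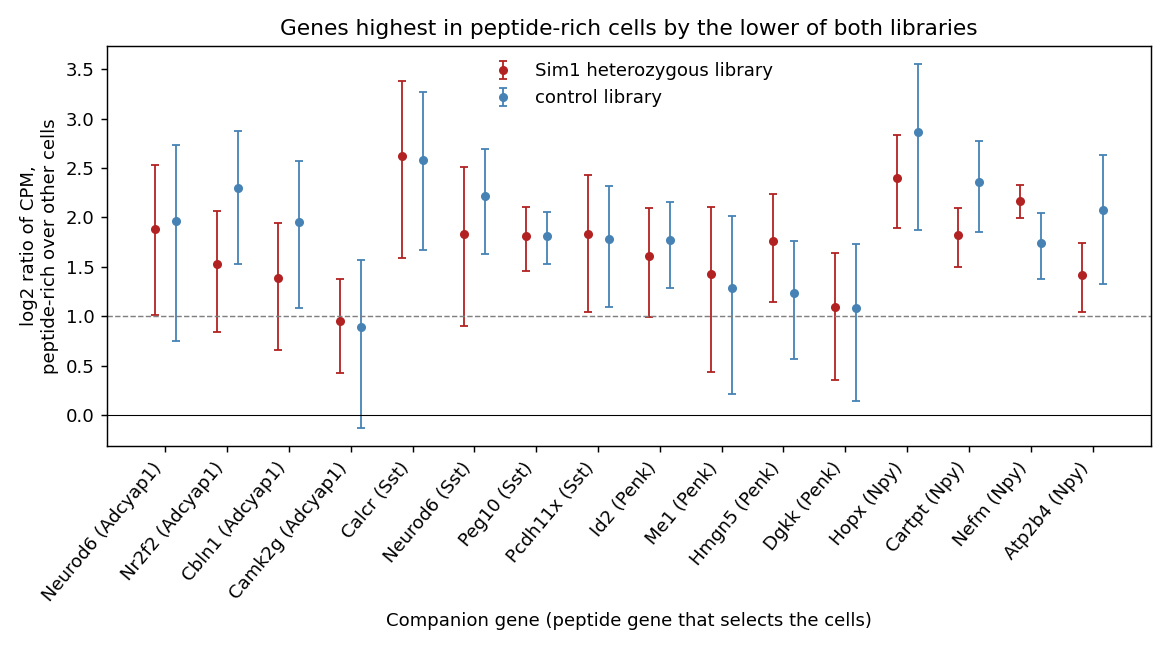
Points give the log2 ratio of CPM (y axis, pseudocount 1 UMI) of each companion gene in cells rich in the peptide gene named in brackets over the other neuron-like cells, with 95% intervals, the Sim1 heterozygous library left of the control library. The dashed line is a 2-fold ratio. Both libraries give values above 0 for every gene shown, though the control interval of Camk2g includes 0, and Hopx in Npy-rich cells is at 2.40 and 2.86.

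Over 28 points (each neuron cluster of 20 or more cells, once per library) the genes whose levels ran most like Adcyap1 were Bdnf (Pearson r 0.83), Scamp1 (0.80) and Nxph4 (0.78). For Sst they were Impact (0.75), Otp (0.70) and Dirc2 (0.69), for Penk Cdh2 (0.76), Ajap1 (0.70) and Crim1 (0.69), for Npy Scaper (0.76), Hnrnpa3 (0.65) and Sap30bp (0.64), and for Grp Tceal3 (0.76), Rogdi (0.69) and Eif1b (0.68). Only genes with at least 300 UMIs in each library were ranked, and genes named by clones, pseudogenes, mitochondrial and ribosomal protein genes were passed over. The points share libraries and depth and are no independent samples, and the Grp values rest on 27 and 40 UMIs in the Sim1 heterozygous and control libraries.

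Of 21 receptor, related peptide and processing genes with at least 30 UMIs, out of 35 listed, 3 were at least 1.5-fold higher in the Sim1 heterozygous library and 1 was at least 1.5-fold lower, beside 7.95% and 9.16% of all genes. Of 9 receptor genes with at least 30 UMIs, out of 19 listed, 2 were at least 1.5-fold higher in the Sim1 heterozygous library (Vipr2, a receptor shared by PACAP and vasoactive intestinal peptide, from 28 against 18 UMIs, and Npy2r, from 52 against 35) and 1 lower (Grpr, the GRP receptor, from 7 against 23). The median log2 ratio of the 9 was 0.15, against 0.04 over all genes. Adcyap1r1, the PACAP receptor, had 475 and 472 UMIs (0.28 [0.09 to 0.47]), and the somatostatin receptors Sstr1 and Sstr2 were at 0.13 and -0.14. The neuropeptide Y receptors Npy1r and Npy5r were at 0.18 and 0.14 and the kappa opioid receptor gene Oprk1 at 0.15. Of 8 processing genes 1 was higher, Furin (1.18 [0.28 to 2.23], from 29 against 15 UMIs). The prohormone convertases Pcsk1 (0.53 [0.21 to 0.87]) and Pcsk2 (0.47 [0.34 to 0.60]) stayed under 1.5-fold. None of the 4 related peptides measured (Pdyn, Pnoc, Pomc and Nmb) passed 1.5-fold in either direction.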

How the data were processed

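The authors deposited UMI counts per gene and cell barcode, 1 table per library and 1 merged table with the same counts. The mouse build mm10 and the tools STAR 2.6.0b, Picard, bcl2fastq and Seurat 3 are named per the submitters' processing notes; the sources used here do not state the counter, its annotation or its use of strand. The tables held 24905 genes and 5397693 UMIs (Sim1 heterozygous) and 6525080 UMIs (control), and 0 columns went unused.

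Barcodes with under 300 genes were removed (22 Sim1 heterozygous and 1 control); a limit of 20% mitochondrial UMIs removed none. Doublets were neither called nor removed; an alternative left out the 2% deepest cells. Cells were clustered with scanpy 1.11.5 (2000 variable genes without the 5 peptide genes, Sim1, Irx, sex-linked and mitochondrial genes, 30 principal components, 20 neighbours, Leiden resolution 1). Levels are CPM of summed UMIs with exact Poisson intervals; log2 ratios use a pseudocount of 1 UMI per side and conditional exact binomial intervals; shares have Clopper-Pearson intervals, all at 95%. Genes were compared between libraries from 30 UMIs over both, and by gate from 30 UMIs in the library. For a count of 0 the limit is 3 UMIs. The ratio intervals were tried on simulated Poisson sums only. That is the model they assume, so the simulation cannot tell how they hold for genes concentrated in few cells. PCR and cells of a pool are not independent, so intervals cover counting error only. Python 3.11.15, numpy 2.4.6, scipy 1.17.1 and pandas 2.3.3 were used. Gene positions are from GENCODE M21, whose build matches mm10.

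The genes, gates, marker and pathway lists, thresholds and alternatives were chosen with earlier results of these data known. Besides the 5 genes, the text names for each the 3 genes with the highest Pearson r of log2(CPM + 10) over clusters, the 4 companions with the highest lower ratio of both libraries, and list members; genes named outside this rule, and the cells with most Npy, were chosen after their values were seen. Npy4r, Npy6r and Ppy were not analysed here, and 1 neuron cluster is not reported here. Which barcodes count as cells was taken as deposited.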

Additional observations from a re-analysis of the deposited data

How the results depend on the processing

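No paired analysis was possible because each genotype has 1 library, and no replicate could be left out for the same reason. Of 55 alternative log2 ratios between the libraries, 47 stayed within the counting interval of the reported value. Equal weights for the 13 neuron clusters that had 20 or more cells in both libraries gave log2 ratios of 0.27 for Adcyap1, 0.38 for Sst, 1.14 for Penk, -0.14 for Npy and 0.63 for Grp. Giving each cell equal weight gave 0.10 for Sst and 0.66 for Grp, and leaving out the 5 cells richest in Npy gave 0.85. Within its interval, Penk turned to -0.05 without its 5 richest cells, and Grp to 0.15 without the 2% deepest cells. With at least 2 UMIs in a thinned cell, the ratio of shares was 2.15 [0.808 to 6.06] for Adcyap1, from 12 Sim1 heterozygous and 8 control cells. For Grp it was 0 [0 to 7.63], from 0 and 2 cells. Both intervals include 1. The number of cells rich in a pair was 74 in the Sim1 heterozygous and 54 in the control library at 1 UMI, 0 and 1 at 5 UMIs, and 9 and 12 at 1 UMI after thinning; without the 2% deepest cells it was 3 in the Sim1 heterozygous library. Receptor, related peptide and processing genes past 1.5-fold were 5 higher and 2 lower from 10 UMIs, and 0 and 0 from 100 UMIs. Of the alternative levels by gate, 27 moved beyond the interval and 78 did not; those without the richest cell were chosen after seeing the data. The causes were not tested. Gates with under 40 cells, the rare gene Grp and any level near 3 UMIs are limited by depth.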
